A study of Homo sapiens with 4 samples.

Results

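The array used for this study carries 6153 probes whose identifiers start with TCONS, each printed as 1 spot. The 365 TCONS probes described here were selected on their processed signal, as those flagged well above background on every one of the 4 arrays (5.93% of the 6153). They name 362 distinct transcripts, since 3 transcripts are named by 2 of these probes each, and they stand among 50599 probes of all kinds on the array. The flag uses the measured signal, so that the brightness of these probes is a condition of their choice and not a result. The size of the difference between TIA1 immunoprecipitates and total RNA was not used to choose them, but detection was required in both groups, so that probes seen in 1 group alone are left out.

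RNA-binding protein immunoprecipitation (RIP) was performed in KYSE180 cells, an established cell line from a human esophageal squamous cell carcinoma (ESCC), with an anti-TIA1 antibody on cytoplasmic lysates. The immunoprecipitated RNA (TIA1 RIP, replicates 1 and 2) and total RNA labelled as input (replicates 1 and 2) were hybridized to 4 single-colour Agilent arrays. No treatment or genetic change is given for either group, and both come from the same single cell line. Neither the labels nor the methods state whether replicates came from separate cultures, so p-values measure only the spread between these arrays, which may be technical, or whether whole cells or cytoplasmic lysates gave the total RNA. These are bulk samples of 1 line. IgG immunoprecipitates were not analysed here.

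TCONS identifiers are the names that the Cufflinks assembler gives to transcripts built from RNA sequencing reads, and the human catalogue of long intergenic noncoding RNAs (lincRNAs) was published under such names. LincRNAs are transcribed by RNA polymerase II between protein-coding genes, are commonly spliced and polyadenylated, and are known for low levels that differ strongly between tissues. TIA1 is an RNA-binding protein of the nucleus and the cytoplasm that binds U-rich stretches, regulates splicing and mRNA translation, and gathers in stress granules. The comparison asks how strongly these transcripts were found in TIA1 immunoprecipitates in relation to the input and to mRNAs. The files give probe names and transcript identifiers only, without probe sequences or positions, so that whether a given transcript is intergenic or noncoding was not checked here beyond the few that carry a gene name.

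The arrays share 1 slide and 1 scan. The processed signal had a 75th percentile of 1514 and 1271 for TIA1 RIP but of 714 and 69.9 for total RNA (replicates 1 and 2), and 32.2% of the spots of the last array were well above background against 45.8% to 48.4% on the others. Total RNA replicate 2 thus stood apart, and results on the means below are followed by those with each total RNA array. All 6 squamous markers examined (KRT5, KRT14, KRT6A, TP63, DSG3 and SOX2) had a probe detected on all 4 arrays. Of 4 markers of other cell types, PECAM1 was detected on none, PTPRC and COL1A1 had at most 3 arrays, and DES, a muscle intermediate filament, was detected on all 4.

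TCONS probes were detected far less often than mRNA probes. Of the 6153, the TIA1 RIP arrays detected 738 (12.0%) and 998 (16.2%), and the total RNA arrays 758 (12.3%) and 578 (9.39%), replicate 1 first. Probes with an NM_ accession, the RefSeq prefix of mRNAs, were detected in 61.8% and 63.9% of cases on the TIA1 RIP arrays and in 63.5% and 43.3% on the total RNA arrays. A further 4731 TCONS probes (76.9%) were detected on no array. On both TIA1 RIP arrays and neither total RNA array, 87 TCONS probes were detected (1.41%, against 1.29% of all 50599 probes). On both total RNA arrays and neither TIA1 RIP array, 20 were (0.325%, against 0.518%). TIA1 RIP replicate 2 alone detected 322 (5.233%, against 4.397% of all probes), and TIA1 RIP replicate 1 alone 96 (1.560%, against 1.097%). The arrays differed in brightness, and the part of that in these counts was not tested.

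Among arrays missing alone, total RNA replicate 2 most often kept a TCONS probe out. It was the lone missing array for 117 TCONS probes (1.90%), and for 10.4% of all probes on the array. The other arrays were the lone missing array for 22 (TIA1 RIP replicate 1), 12 (TIA1 RIP replicate 2) and 21 probes (total RNA replicate 1). These were 0.358%, 0.195% and 0.341% of the TCONS probes, against 0.372%, 0.283% and 0.356% of all probes. The flag weighs each spot against its own background, so the threshold is not a fixed signal. On total RNA replicate 2, the dimmest probe inside (TCONS_00028224) had a processed signal of 34.1, and the brightest probe missing that array alone (TCONS_00026418) had 44.9. On TIA1 RIP replicate 1, the same values were 143 (TCONS_l2_00000966) and 168 (TCONS_00007181).

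Identifiers of 2 series were among the probes, those with the prefix TCONS_l2, whose meaning is not given in the sources used here, and those without it. The l2 series passed the detection condition in 118 of 1167 cases (10.1%) and the other series in 247 of 4986 (4.95%). The l2 members were also brighter, with a median log2 signal of 0.59 over the 4 arrays against -0.69 for the other 247. Log2 signals here and below are relative to the 75th percentile of the array, so that 0 is the signal at that percentile. Levels of different probes are set side by side only as brightness, since probes differ in hybridization.

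Most of the 365 probes were dim. Their median log2 signal was -0.66 and -0.44 in TIA1 RIP and -0.97 and 0.76 in total RNA (replicates 1 and 2), where the 10207 NM_ probes detected on all 4 arrays had 1.70, 1.63, 1.65 and 1.92. In processed signal, the medians of the TCONS probes were 957, 934, 364 and 118 in the same order. The error that the scanner software gives for a spot had a median of 10.5% to 11.8% of the signal over these probes on the 4 arrays, with the highest median on total RNA replicate 2. Since each probe has 1 spot, no spread between spots of a probe could be measured.

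The TIA1 RIP arrays resembled each other more than the total RNA arrays did. Across the 365 probes, Pearson's r was 0.966 for the pair of TIA1 RIP arrays and 0.863 for the pair of total RNA arrays, and the SD of the log2 difference within these pairs was 0.60 and 1.27. TIA1 RIP replicate 1 had an r of 0.928 with total RNA replicate 1 and of 0.807 with total RNA replicate 2. The scaled signal of total RNA was higher in replicate 2 than in replicate 1 for 331 of the 365 probes, with a median log2 difference of -1.98 (replicate 1 minus replicate 2), and this difference was -0.74 over the NM_ probes. The lowest scaled signal of a member was -1.04 on total RNA replicate 2 but -3.43 on replicate 1. Probes dim on replicate 1 thus became members only with a higher scaled signal on replicate 2. The count and the median are therefore partly set by the detection condition. The probes of an array share its slide, scan and labelling and are no replicates of each other, so r is a description.

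The 5 brightest TCONS probes all came from the l2 series. TCONS_l2_00010291 had log2 signals of 7.65 and 7.68 in TIA1 RIP and 8.74 and 10.86 in total RNA. TCONS_l2_00030171 had 7.30 and 7.58 in TIA1 RIP and 8.38 and 11.08 in total RNA. TCONS_l2_00009118 had 7.41 and 7.56 in TIA1 RIP and 8.42 and 8.75 in total RNA. All 5 brightest probes, with the 2 that follow, were lower on both TIA1 RIP arrays than on both total RNA arrays, without overlap. The same held for 29.5% of all probes and 27.9% of NM_ probes of any brightness. TCONS_l2_00016171 had 6.80 and 6.97 in TIA1 RIP and 8.07 and 10.17 in total RNA. TCONS_l2_00030893 had 5.82 and 6.33 in TIA1 RIP and 8.22 and 11.60 in total RNA, the widest gap of the 5. The processed signals of TCONS_l2_00010291 before scaling were 303347 and 259960 in TIA1 RIP and 305209 and 129497 in total RNA, lowest on total RNA replicate 2, where the scaled signal was highest. The brightest NM_ probes also had ratios below the median of all NM_ probes, and against NM_ probes of the same brightness, TCONS_l2_00009118 stood at 0.09 and the other 4 between -0.94 and -2.63.

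No TCONS probe passed the test between the groups. In limma over all 13410 probes detected on all 4 arrays, TIA1 RIP was above total RNA for 0 of the 365 and below for 0 at an adjusted p-value under 0.05, where 0% of all probes were called in either direction. At an unadjusted p-value under 0.05, 1 TCONS probe was higher (0.274%, against 0.969% of all probes) and 23 were lower (6.3%, against 6.35%). With the replicate number as a block in limma, 1 was higher and 17 lower at an adjusted p-value under 0.05, where 0.239% and 3.47% of all probes were, and 3 and 54 at an unadjusted one, where 3.33% and 13.8% were. Both TIA1 RIP arrays lay above both total RNA arrays for 12 of the 365 and below both for 80 (21.9%), while 13.7% of all probes lay above and 29.5% below. The log2 ratio (TIA1 RIP minus total RNA) had a median of -0.50 over the TCONS probes, -0.32 over NM_ probes and -0.41 over all 13410 probes.

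The direction of the TCONS probes depended on which total RNA array they were compared with. With total RNA replicate 1, the median log2 ratio was 0.46, with 246 of 365 probes above 0, while the NM_ probes had a median of 0.03. With total RNA replicate 2, it was -1.47, with 35 of 365 above 0, while the NM_ probes had a median of -0.76. The ratios on the means of the replicates average these opposite values. Members had to be detected on total RNA replicate 2, where the lowest scaled signal was highest, and the part of this condition in these values was not tested.

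With 1 total RNA array left out, limma rests on the spread between the TIA1 RIP arrays and takes the lone total RNA array to vary in the same way. For replicate 1, 0 TCONS probes were called in either direction at an adjusted p-value under 0.05, with 0% of all probes called. At an unadjusted p-value under 0.05 in limma, 39 were higher (4.59% of all probes were) and 22 lower (8.08% of all probes were). For replicate 2, 2 were higher (0.548%, against 6.36% of all probes) and 129 lower (35.3%, against 24.4%) at limma's adjusted threshold of 0.05, and 8 and 201 at the same threshold unadjusted, where 10.8% and 39% of all probes were. The total RNA arrays differed from each other by more than the TIA1 RIP arrays did, so this assumption did not hold for these probes, and the same test with replicate 1 made no call.

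The log2 ratio of NM_ probes varied with their brightness, and TCONS probes are dim, so each probe was also set against NM_ probes of the same brightness. The 10207 NM_ probes were divided into 20 bins of equal size by the mean of the TIA1 RIP and total RNA log2 signals, and the median log2 ratio of the bin was subtracted from that of each TCONS probe. On the means of the replicates the median difference of the 365 probes was -0.02, with 178 above 0 and a quartile range from -0.70 to 0.39. Over all 13410 probes the median was -0.06. This median was -0.42 over the 644 TCONS probes that both TIA1 RIP arrays or both total RNA arrays detected, -0.20 with bins made from total RNA only, 0.13 with bins from TIA1 RIP only and 0.21 against NR_ probes, so its sign depended on these choices.

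Against each total RNA array the opposite signs remained after this step. The median difference was 0.18 against total RNA replicate 1 (0.19 for TIA1 RIP replicate 1 and 0.16 for TIA1 RIP replicate 2) and -0.60 against total RNA replicate 2 (-0.68 and -0.51). The medians thus moved less between the TIA1 RIP arrays than between the total RNA arrays. With the bins made from total RNA replicate 1 alone, the median of 0.18 became -0.00101, so the sign against that array depended on how brightness was defined. Both TIA1 RIP arrays lay above equally bright NM_ probes against total RNA replicate 1 for 182 TCONS probes (49.9%), where 38.5% of all probes did, and below for 117 (32.1%), where 40.3% did. With replicate 2, 82 lay above (22.5%, against 39.2% of all probes) and 233 below (63.8%, against 47%). Of the 365, 112 (30.7%) were above against replicate 1 and below against replicate 2, a pattern found in 1095 of the 10207 NM_ probes.

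The l2 series had lower values than the other series against total RNA replicate 1 and higher values against replicate 2. The median difference from equally bright NM_ probes was -0.07 for the 118 l2 probes and 0.28 for the other 247 against replicate 1, and -0.40 and -0.63 against replicate 2. The pattern of opposite signs, above against replicate 1 and below against replicate 2, held for 23 of 118 l2 probes (19.5%) and 89 of the other 247 (36.0%). This difference between the series was not tested. Other noncoding or less well annotated probes detected on all 4 arrays stood as follows. The 759 NR_ probes, the RefSeq prefix of noncoding RNAs, had medians of -0.26 against replicate 1 and -0.42 against replicate 2. The 725 ENST probes, named by Ensembl transcripts, had 0.09 and -0.50, nearer to the TCONS probes. The pattern of opposite signs held for 85 NR_ probes (11.2%) and 146 ENST probes (20.1%).

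Within the TCONS probes, the medians were lower the brighter the probes against total RNA replicate 2 and had no such order against replicate 1. In the 92 dimmest the median difference was 0.04 against total RNA replicate 1 and -0.20 against total RNA replicate 2. In the next 91 these medians were 0.20 and -0.55, in the 91 after them 0.49 and -0.83, and in the 91 brightest 0.06 and -0.88. The gap between the total RNA arrays thus was smallest among the dimmest probes. The share of l2 identifiers rose from 20.7% in the dimmest of these sets to 51.6% in the brightest.

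In each of the 4 pairs of a TIA1 RIP array with a total RNA array, 47 TCONS probes (12.9%) lay above equally bright NM_ probes and 92 (25.2%) below, while 20.7% and 25.5% of all probes did. The 8 highest and the 8 lowest of these by the difference on the means are described next. Their sign in the 4 pairs was fixed by this choice and is no result. Whether their groups overlapped was partly set by it too. None of the 16 passed limma without the block (the lowest adjusted p-value was 0.632), and their order on the means is a description. All 8 of the lowest and 1 of the highest, TCONS_00022755, were among the 18 TCONS probes called with the replicate number as a block. There limma gave every probe the same standard error of 0.81, so a call was a cut on the log2 ratio. The 16 were chosen by that ratio less the median of a brightness bin, so these calls are no separate support for them.

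TCONS_00022755 had the highest ratio of all 365 probes. Its log2 signals were 1.76 and 2.65 in TIA1 RIP and -1.92 and -0.26 in total RNA, which were processed signals of 5113 and 7994 against 189 and 58.3. Both TIA1 RIP arrays lay well above both total RNA arrays, and the log2 ratio was 3.29 (standard error 0.87, unadjusted p = 0.00639 and adjusted p = 0.632 in limma). The difference from equally bright NM_ probes lay between 2.09 and 4.48 over the 4 pairs, positive against either total RNA array. It was the only TCONS probe higher at an unadjusted p-value under 0.05.

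TCONS_00008036 had log2 signals of 4.74 and 4.66 in TIA1 RIP and 3.86 and 0.67 in total RNA. The groups did not overlap, but the difference of 2.57 from equally bright NM_ probes rested largely on total RNA replicate 2 and was 0.91 against replicate 1. TCONS_00026503 had 3.10 and 3.98 in TIA1 RIP and 0.94 and 2.36 in total RNA, with differences of 2.53 against replicate 1 and 1.64 against replicate 2. TCONS_00028338 had 1.03 and 1.36 in TIA1 RIP and -1.02 and 0.29 in total RNA. TCONS_00028338 stood at 2.13 and 0.97 with these arrays, and for it and TCONS_00026503 both TIA1 RIP values exceeded both total RNA values.

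TCONS_l2_00003294 was the most even of the 8, with log2 signals of 1.00 and 1.03 in TIA1 RIP and -0.50 and -0.31 in total RNA. Its differences from equally bright NM_ probes were 1.42 against replicate 1 and 1.89 against replicate 2, and its log2 ratio was 1.42 (standard error 0.72, adjusted p = 0.635 in limma). The last 3 of the 8 were dim. TCONS_00021872 had -0.42 and 0.06 in TIA1 RIP and -2.29 and -0.49 in total RNA, where the groups came close without overlap. TCONS_00004770 had -1.04 and -0.20 in TIA1 RIP and -2.49 and -0.59 in total RNA, and its groups overlapped. The probe of TCONS_00016491 named A_19_P00322545 had -1.14 and -0.65 in TIA1 RIP and -2.57 and -0.75 in total RNA, with overlap too.

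The 8 lowest probes had in common a far higher scaled signal on total RNA replicate 2 than on the other arrays. The 75th percentile taken off by the scaling was 69.9 on that array and 714 on total RNA replicate 1. Processed signals before scaling lay closer together on these arrays. They were 2749 and 3581 (replicates 1 and 2) for TCONS_00003548 and 716 and 727 for TCONS_00015162. TCONS_00022267 had log2 signals of -0.86 and -0.67 in TIA1 RIP and 1.73 and 6.44 in total RNA, where replicate 2 had by far the higher scaled signal. Its processed signals were 833 and 801 in TIA1 RIP and 2368 and 6072 in total RNA. Its log2 ratio was -4.85 (standard error 1.43, unadjusted p = 0.0109 and adjusted p = 0.632 in limma), the lowest of the 365. Against equally bright NM_ probes it stood at -2.41 with total RNA replicate 1 and at -6.75 with total RNA replicate 2, so it was below on either array by sizes that differed widely.

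TCONS_00020641 had -2.69 and -1.37 in TIA1 RIP and -0.13 and 3.71 in total RNA. TCONS_00022876 had -0.40 and -0.33 in TIA1 RIP and 1.35 and 4.77 in total RNA. TCONS_00022841 had -3.22 and -2.29 in TIA1 RIP and -1.63 and 2.87 in total RNA. For each, both TIA1 RIP arrays were below both total RNA arrays, and the differences from equally bright NM_ probes were -2.12, -1.62 and -1.59 against total RNA replicate 1. With replicate 2, they were -5.68, -4.78 and -5.07.

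TCONS_l2_00030893, one of the 5 brightest probes described above, was the brightest of the 8 lowest, with differences of -1.45 against replicate 1 and -3.44 against replicate 2. TCONS_00015162 had -0.83 and -1.36 in TIA1 RIP and 0.00 and 3.38 in total RNA. TCONS_00003548 had 1.15 and 1.18 in TIA1 RIP and 1.94 and 5.68 in total RNA. TCONS_00021811 had -3.29 and -2.72 in TIA1 RIP and -1.64 and 2.17 in total RNA. None of these groups overlapped. With replicate 1 alone the last 3 stood at -1.21, -0.80 and -1.83, and against replicate 2 at -4.37, -4.00 and -4.25.

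Where 2 members name the same transcript, they did not always move alike. For TCONS_l2_00005178, 1 probe had log2 signals of 1.62 and 1.35 in TIA1 RIP and 2.05 and 0.65 in total RNA, and the other had 1.36 and 1.05 in TIA1 RIP and 1.74 and 0.20 in total RNA. This pair ran in parallel, with differences from equally bright NM_ probes of 0.18 and 0.30 on the means, but of -0.62 and -0.56 with total RNA replicate 1 and 0.94 and 1.07 against replicate 2. For TCONS_00016491, the probe A_19_P00322545 given above stood at 1.40, and the probe A_19_P00315914, with -2.26 and -2.33 in TIA1 RIP and -2.11 and 0.92 in total RNA, stood at -0.98. The signs of these probes were opposite with either array, at 1.34 and -0.65 against replicate 1 and 0.95 and -2.12 against replicate 2. For TCONS_l2_00030929, 1 probe had 0.73 and 1.39 in TIA1 RIP and -1.47 and 1.48 in total RNA, and the other had 3.22 and 3.56 in TIA1 RIP and 2.34 and 5.45 in total RNA. The differences of that pair were 1.25 and -0.36 on the means, but 2.41 and 1.07 against replicate 1 and -0.26 and -1.24 against replicate 2, so that the signs matched with each array.

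Transcripts of consecutive identifiers are listed next to each other by the assembler, and 7 such pairs were found among the members. The median gap between the probes of such a pair was 1.51 in mean log2 signal and 0.45 in the difference from equally bright NM_ probes, against 1.65 and 0.83 over all 66430 pairs of members. Both members had the same sign in 4 of the 7 pairs on the means (57.1%), where 49.9% of all pairs of members did. They had it in 4 with total RNA replicate 1 and in 6 against replicate 2. The share over all pairs was not computed for these arrays, where 213 and 104 of the 365 members lay above 0. The widest gap in brightness was between TCONS_00017454, with 2.72 and 2.56 in TIA1 RIP and 3.74 and 4.47 in total RNA, and TCONS_00017455, with -3.12 and -2.94 in TIA1 RIP and -2.93 and 0.05 in total RNA.

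Gene names could be attached to 13 of the 6153 TCONS probes, either from the identifier itself or from RefSeq's older names, and 2 of these are members. They were named for that reason and not by their values. TCONS_00079053_HOTAIR is a probe for HOTAIR, a long noncoding RNA of the HOXC cluster known for its link to the Polycomb complex PRC2. GENCODE places the gene at 54356092 to 54368740 of chromosome 12 (GRCh37, minus strand) as a long noncoding RNA. This probe had log2 signals of -2.07 and -1.42 in TIA1 RIP and -2.26 and -0.55 in total RNA, so that the groups overlapped, and its log2 ratio was -0.34 (standard error 0.86, adjusted p = 0.915 in limma).

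HOTAIR was also measured by 7 probes under its RefSeq accession, and 3 of the 8 probes were detected on all 4 arrays. Of the others, A_19_P00330464 was detected on both TIA1 RIP arrays and total RNA replicate 1. Both TIA1 RIP arrays but neither total RNA array detected A_19_P00330814 and A_21_P0010503, and 2 probes were detected on no array. A_19_P00329806, the brightest, had 1.19 and -0.02 in TIA1 RIP and 2.08 and 2.67 in total RNA. A_19_P00326808 had -2.51 and -1.64 in TIA1 RIP and -2.69 and -0.36 in total RNA. Against equally bright NM_ probes A_19_P00329806 stood at -1.53 with total RNA replicate 1 and -1.82 with replicate 2, and A_19_P00326808 at 0.15 and -0.13. The TCONS probe stood at 0.04 and 0.40, so that the probes of this gene differed widely.

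The other named member, TCONS_00011636, is listed by RefSeq under FOXCUT, the long noncoding transcript upstream of FOXC1. GENCODE places FOXCUT at 1601889 to 1607589 of chromosome 6 (GRCh37, plus strand), also as a long noncoding RNA. Its probe was near the lower end of the members, with -2.85 and -2.31 in TIA1 RIP and -2.70 and -0.94 in total RNA, and stood at -0.35 and -0.04 against equally bright NM_ probes with total RNA replicates 1 and 2. Of the TCONS probes whose identifier carries a gene name, that of HOTTIP was detected on no array, and that of GNAS-AS1 on total RNA replicate 2 alone.

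Relative to GAPDH, the reference of the study for enrichment, most TCONS probes passed 2.5-fold. On the means, 219 of the 365 (60%) were more than 2.5-fold above GAPDH and 4 below, where 62.3% of all probes were above and 1.59% below. The GAPDH probe, for an abundant glycolytic mRNA, had log2 signals of 6.49 and 6.69 in TIA1 RIP and 7.67 and 9.63 in total RNA, with a log2 ratio of -2.06 (n = 2 arrays per group). The share of TCONS probes past the fold was thus close to that of all probes, whose median ratio of -0.41 lay far above that of GAPDH. With the median of the NM_ probes in place of GAPDH, 9 were above and 50 below 2.5-fold, where 9.66% and 12.9% of all probes were.

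In the single pairs, the TCONS counts above GAPDH varied less than those of all probes. For replicate 1 of total RNA, 200 and 217 of the 365 were more than 2.5-fold above (54.8% and 59.5%), where 43.3% and 39.8% of all probes were. For replicate 2, 209 and 225 were (57.3% and 61.6%), where 68.6% and 69% of all probes were. More than 2.5-fold below GAPDH were 3 and 5 with replicate 1 and 12 and 12 with replicate 2, where 1.25%, 2.86%, 3.06% and 2.42% of all probes were. In all 4 pairs, 122 TCONS probes were above (33.4%), against 24.1% of all probes and 24.5% of NM_ probes, and 1 was below, against 0.761% of all probes. The fold is a threshold without a test, and in limma on values relative to GAPDH 0 of the 365 had an adjusted p-value under 0.05, as did 0% of all probes. With the p-value left unadjusted, 147 were above (40.3%, against 29.6% of all probes) and 0 below (0.902% of all probes).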

How the data were processed

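For each array the authors deposited what Agilent Feature Extraction (version 10.7.1.1) had written, fluorescence intensities per spot on a linear scale, not normalized between arrays. The processed signal is already background-subtracted and detrended, and raw intensities of spot and background stand beside it. The deposited files also hold other columns, the flags for uneven, deviant, saturated and well-above-background spots. The authors went on in GeneSpring, whose scaling, filter and test are not given in the sources used here.

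Spots flagged as uneven or deviant (299 to 382 of 58717 per array) were left out, no spot was saturated, log2 processed signals were reduced by the 75th percentile of the array, and spots of a probe were averaged. Probes with at least a share of 0.5 of their spots well above background on each array were kept (13410, after 7 probes without a value on an array were left out). TIA1 RIP was compared with total RNA over all of them by lmFit and eBayes of limma 3.58.1 under R 4.3.3, with Benjamini-Hochberg adjustment and a threshold of 0.05. The procedure was run on simulated arrays with independent noise of equal size on each array. The total RNA arrays here differed from each other more than the TIA1 RIP arrays did, so that simulation does not cover them. Tables were joined with pandas 2.3.3 in Python 3.11.15. Precision is limited by having 2 arrays per group. Alternatives covered background, scaling, filter, spots, brightness bins, fold, reference, replicate block and each array left out.

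Groups and replicate numbers come from the sample labels. Gene names come from RefSeq (a later assembly, names only), and coordinates from GENCODE on GRCh37, the build in the file headers. Probe sequences were not used here. The probes and rules were chosen with earlier results of these data known. Named are the 8 highest and 8 lowest TCONS probes with 1 sign in all 4 pairs, the 5 brightest, probes sharing a transcript, those nearest the detection threshold and, outside that rule, those with a gene name, the consecutive identifiers with the widest gap in brightness and other HOTAIR probes. No probe passed the adjusted threshold over both total RNA arrays without the block, so none was named for that.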

Additional observations from a re-analysis of the deposited data

How the results depend on the processing

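The numbers of TCONS probes past an adjusted p-value of 0.05 in limma over both total RNA arrays stayed at 0 in each direction under another background correction, scaling, reference, spot summary or the filter on both arrays of a group, and without any filter on dim probes 1 was lower. With the replicate number as a block, 1 was higher and 17 lower. The sources do not state whether same-numbered arrays of the 2 groups came from the same lysate. Same-numbered arrays deviated together with r = 0.344 over the TCONS probes (0.494 over all probes). With each array left out in turn, the counts ran from 0 to 2 higher and from 0 to 129 lower, with the largest counts without total RNA replicate 1. Against total RNA replicate 1 alone, dropping the filter gave 13 higher and 51 lower in place of 0. Against total RNA replicate 2 alone, the 2 higher became 4 with normexp, 4 with the NM_ median as scale, 11 with the filter on both arrays of a group and 7 without a filter, and the 129 lower became 61 with normexp, 84 with quantile normalization and 734 without a filter. The median difference from equally bright NM_ probes against total RNA replicate 1, 0.18, became 0.12 with normexp, 0.21 with the filter on both arrays of a group, 0.0015 without a filter, 0.21 with 10 bins, 0.42 with bins from TIA1 RIP only, -0.00101 with bins from total RNA only, 0.46 against NR_ probes and 0.21 over the 482 TCONS probes detected on the other 3 arrays. This last setting, and the background, scaling, filter and spot settings for the tests with a single total RNA array, were chosen after seeing the data. With 1 TIA1 RIP array left out, it lay between 0.19 and 0.23. Against total RNA replicate 2, -0.60 became -0.33 with normexp, -1.51 with the filter on both arrays of a group, -0.0060 without a filter, -0.17 with bins from TIA1 RIP only, -1.14 with bins from total RNA only and -0.23 against NR_ probes. Over both, leaving out arrays gave -0.60 to 0.18 (without total RNA replicate 1 and 2), and the filter on both arrays of a group -0.42. The 219 probes past 2.5-fold above GAPDH became 144 with normexp, 22 with quantile normalization, 431 of 644 with the filter on both arrays of a group, 2250 of 6153 without a filter, 92 at 4-fold and 9 relative to the NM_ median. The 4 below became 28 with quantile normalization, 16 with the filter on both arrays of a group, 30 without a filter, 1 at 4-fold and 50 relative to the NM_ median, and lay between 1 and 12 with an array left out. Without a filter, the probes included those detected on no array, 76.9% of the TCONS probes and 47.3% of all probes. The causes of all these changes were not tested. Of 297 recomputed differences for the 27 named probes, 283 kept their sign, which for the 8 highest and 8 lowest was largely fixed by how they were chosen. All arrays share 1 slide and scan, so neither could be fitted as a block.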
